A study of Mus musculus with 10 samples.

Results

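The 40 genes described here encode the Eph receptors, their ephrin ligands, the slits and their Robo receptors, and the netrins with the netrin-G, Dcc, neogenin and UNC5 proteins. They were named by gene symbol, with no threshold on a measured value, and all 40 were found among the 32531 gene rows. The study compared the left with the right medial habenula of adult mice of the BAC transgenic line Chat-TRAP DW167. In this line an EGFP tag sits on the ribosomal protein Rpl10a in cells that use the choline acetyltransferase gene, and an antibody to EGFP then isolates the ribosomes of cholinergic neurons with the RNA they are translating (the TRAP method). The 2 groups were the left side (5 libraries) and the right side (5 libraries). All animals carried the same transgene, every library was a pull-down, and no unpurified input or untagged animal was used here. The labels give neither the number of animals behind a library nor their sex, and are silent on whether each library stands for another animal, so the p-values measure only the spread between libraries, which may be technical.

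Eph receptors are tyrosine kinases that bind ephrins on the surface of neighbouring cells. Ephrin-A ligands are held in the membrane by a lipid anchor and ephrin-B ligands by a transmembrane segment, and signals run into both cells, most often as repulsion. Slits are secreted proteins that repel axons through Robo receptors. Netrins are secreted proteins that attract axons through Dcc and repel them through UNC5 receptors, and netrin-Dcc signalling helps to shape the tract that carries habenular axons to the interpeduncular nucleus. The netrin-G proteins resemble netrins but are lipid-anchored, bind synaptic ligands of the NGL family and do not bind Dcc. In the adult brain many of these genes remain in use at synapses.

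Between 42488448 and 67942836 reads per library fell in genes. Levels are CPM (reads of a gene per 1000000 reads in genes), with library sizes scaled by the trimmed mean of M-values (TMM), and errors are SD over 5 libraries of a side. All 12 medial habenular markers, among them Chat, Slc18a3, Tac2 and Gpr151, had reads in every library. The libraries did not vary mainly by side. Replicates 1 and 5 of both sides stood apart from the other 6 libraries on the first principal component of log2 CPM, which held 79.4% of the variance. In replicates 1 and 5 the 15 astrocyte markers summed to 614 to 676 CPM, against 1001 to 2523 CPM in the other 6 libraries. Most of the sum in replicates 1 and 5 was Atp1b2, with 486 to 553 CPM there and 526 to 680 CPM in the other 6. The other 14 astrocyte markers were all lower in replicates 1 and 5, such as Slc1a2 (33.5 to 37.5 CPM, against 208 to 1074 CPM). The 12 oligodendrocyte markers summed to 114 to 123 CPM in replicates 1 and 5 and to 435 to 1906 CPM in the other 6. The medial habenular list ran the other way, with 10702 to 11112 CPM in replicates 1 and 5 against 5311 to 8833 CPM in the other 6. In such pull-downs from tissue, fewer cells of a type and less RNA per cell cannot be told apart. Counts of right replicates 1 and 5 differed by only slightly more than sampling noise (chi-square per degree of freedom 1.12 for genes with 20 to 100 reads in the pair and 1.29 for genes with 100 to 500 reads). These 2 libraries carry the same index on lanes 3 and 2. For left replicates 1 and 5 the values were 1.41 and 2.14, and for every other pair within a side at least 4.02 and 6.71. Whether replicates 1 and 5 of a side come from the same RNA is not stated in the labels, and the comparison of the sides is given both with them as separate libraries and with them summed.

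No member of these guidance families passed the test for a difference between the left and the right side. Reads sufficed for a test of 37 of the 40 genes, and 0 of the 37 passed an adjusted p of 0.05 in edgeR's quasi-likelihood test with Benjamini-Hochberg adjustment, against a background of 0% (0 of 16250 genes). At an unadjusted p under 0.05 edgeR counted 0 members, against 0.554% of all genes. DESeq2 also gave 0 members at either threshold, and limma-voom with sample weights gave 0 after adjustment and 8 at an unadjusted p under 0.05, where 2359 of all 16250 genes had such a p. With replicates 1 and 5 of each side summed, and with replicates 2 to 4 alone, edgeR again called 0 members. The log2 fold change, left minus right, lay above 0 for 19 of the 37 members, where 46.3% of all genes lay above 0. That count ranged from 13 to 31 with 1 library left out (31 without left replicate 1 or left replicate 5, 30 without right replicate 3). Its median was 0.01 over the members and -0.01 over all tested genes, and its median size was 0.08 for both. In limma-voom with sample weights 30 of the 37 lay above 0, with a median of 0.28, beside 7928 of 16250 genes and a median of -0.01. The smallest unadjusted p in edgeR was 0.203, for Epha7, and in 0 of the 37 members did all left libraries lie below (0.111% of all genes) or above (0.0985%) all right libraries. For 25 of the 37 members the 95% interval of the log2 fold change lay inside -1 to 1, where 71.4% of all genes had such an interval. For the other 12, among them Epha4, Ntng1 and Unc5c, the interval reached past a 2-fold difference, so one of that size was not excluded.

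**Figure D1:**
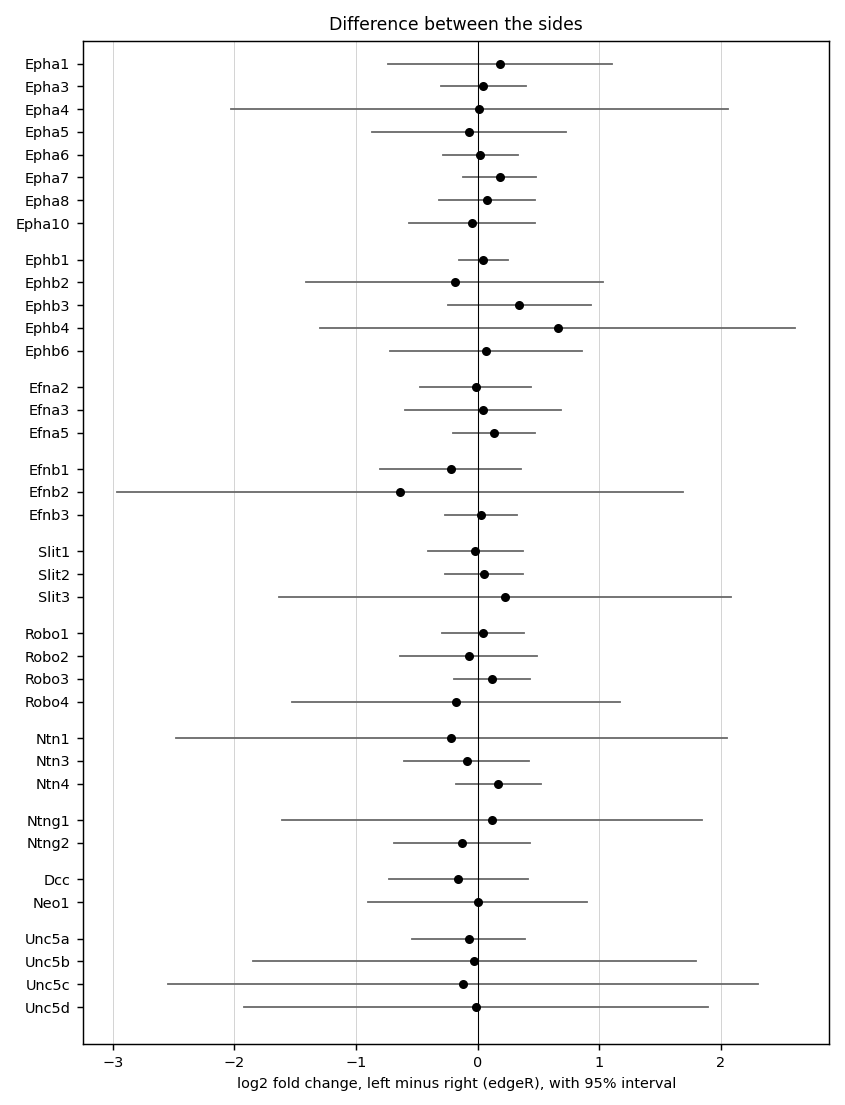
The log2 fold change of each of the 37 tested guidance genes, left minus right, is plotted on the x axis as a point with its 95% interval from edgeR, with genes grouped by family down the page. All 37 intervals include 0, and the widest belong to genes whose levels varied most between libraries of a side, such as Efnb2 (-2.97 to 1.69) and Unc5c (-2.55 to 2.31).

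Among the 9 EphA receptors, Epha7 was the most abundant by mean CPM and Epha4 the most variable of the tested ones. Epha4 lay above Epha7 in left replicate 4 and in right replicates 3 and 4. Epha7, a receptor of ephrin-A ligands on chromosome 4 (28813131 to 28967499 of GRCm38, plus strand), stood at 114, 136, 135, 172 and 107 CPM in left replicates 1 to 5, against 107, 124, 117, 130.2 and 107 CPM in right replicates 1 to 5. The sides overlapped, with a log2 fold change of 0.18 (95% interval -0.12 to 0.48), and left replicate 4 was the highest library. Epha4, which binds ephrins of both classes (chromosome 1, 77367185 to 77515088, minus strand), stood at 13.6, 90.2, 102, 173 and 13.2 CPM in left replicates 1 to 5, against 12.5, 45.8, 178, 141 and 12.3 CPM in right replicates 1 to 5. Its 4 values in replicates 1 and 5 were the lowest on either side, the highest library was 14.4 times the lowest, and the log2 fold change was 0.01 (-2.03 to 2.06). Epha6 had 52.5 to 79.2 CPM and Epha5 27.3 to 77.8 CPM over the 10 libraries. Epha8 (26.6 to 45.9 CPM), Epha10 (7.77 to 16.3 CPM) and Epha3 (5.87 to 9.65 CPM) were lower, and Epha1 reached at most 1.82 CPM. Epha2 fell below the filter on low counts and was left out of the test. It had 0 reads in 4 libraries and at most 0.833 CPM, in right replicate 3. In edgeR with no such filter Epha2 had an unadjusted p of 0.0487, where 329 of 23890 genes were under 0.05. It was not called after adjustment. A count of 0 allows up to 0.0442 CPM at the greatest and 0.0706 CPM at the smallest depth of the 10 libraries, by counting error alone.

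The EphB receptors, which bind mainly transmembrane ephrins, were led by Ephb1. Ephb1 (chromosome 9, 101922128 to 102354693, minus strand) stood at 34.4, 42.96, 34.4, 36.98 and 35.7 CPM in left replicates 1 to 5, against 35.1, 37.6, 34.3, 35.4 and 36.2 CPM in right replicates 1 to 5. It was the steadiest of the 37 tested members, with the highest library at 1.25 times the lowest, and its log2 fold change was 0.05 (-0.15 to 0.25). Ephb6, a member whose kinase domain is inactive, stood at 3.796, 9.26, 7.33, 9.47 and 4.11 CPM in left replicates 1 to 5, against 4.71, 4.399, 9.08, 9.89 and 4.37 CPM in right replicates 1 to 5. Right replicate 2 lay with replicates 1 and 5 at the low end for this gene. Ephb3 stood at 1.22, 2.37, 2.13, 2.22 and 1.197 CPM in left replicates 1 to 5, against 1.35, 1.501, 1.82, 1.47 and 1.07 CPM in right replicates 1 to 5. Left replicates 2 to 4 were the 3 highest libraries for Ephb3, and the log2 fold change of 0.34 (-0.25 to 0.93) did not pass the test. Ephb4, known as a receptor of veins, stood at 0.0657, 0.453, 0.914, 0.343 and 0.0552 CPM in left replicates 1 to 5, against 0.103, 0.0743, 0.709, 0.0994 and 0.164 CPM in right replicates 1 to 5. These Ephb4 values rest on 3 to 54 reads a library, and right replicate 3 lay far above the other right libraries. Ephb2 ranged from 2.01 to 9.52 CPM.

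Ephrins, the ligands of these receptors, were carried by 1 abundant gene in each class. Efna5, an ephrin-A known from topographic maps, stood at 27.4, 28.6, 35.5, 37.4 and 25.4 CPM in left replicates 1 to 5, against 24.4, 26.2, 32.7, 33.5 and 23.8 CPM in right replicates 1 to 5. The sides overlapped (log2 fold change 0.14, -0.20 to 0.48). Efna3 stood at 2.17, 3.51, 4.72, 3.295 and 2.49 CPM in left replicates 1 to 5, against 2.09, 3.12, 4.24, 4.15 and 2.102 CPM in right replicates 1 to 5. An antisense gene covers 14.1% of the exonic bases of Efna3, and no source used here gives the strand setting of the counting, so its level is uncertain to that extent. Efna2 had 1.74 to 3.17 CPM. Efna1 and Efna4 were not tested, with at most 0.162 and 0.179 CPM. Among the ephrin-B ligands, Efnb3 (chromosome 11, 69554092 to 69560205, minus strand) stood at 52.8, 69.95, 54.5, 53.1 and 60.6 CPM in left replicates 1 to 5, against 64.6, 60.3, 50.04, 45.3 and 65.5 CPM in right replicates 1 to 5. The sides overlapped for Efnb3, and replicates 1 and 5 overlapped with the other 6 libraries. The highest library was left replicate 2 and the lowest right replicate 4. Within replicates 1 and 5 both left values of Efnb3 lay below both right values, while in replicates 2 to 4 the sides overlapped. Efnb1 stood at 4.59, 9.54, 7.25, 6.71 and 4.92 CPM in left replicates 1 to 5, against 6.77, 12.2, 5.74, 7.03 and 6.78 CPM in right replicates 1 to 5. Right replicate 2 lay above the other 9 libraries for Efnb1. Efnb2, a ligand of Ephb4 that marks arteries, stood at 0.164, 1.69, 4.27, 3.295 and 0.295 CPM in left replicates 1 to 5, against 0.367, 2.41, 5.74, 6.44 and 0.224 CPM in right replicates 1 to 5. The lowest of the other 6 libraries was 4.59 times the highest of replicates 1 and 5, and the full range of 39.2-fold was the widest of the 37 members.

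Slit2 and Robo1 were the most abundant ligand and receptor of the slit system by reads. Slit2 (chromosome 5, 47983138 to 48307733, plus strand) stood at 151, 127, 119.8, 126 and 147 CPM in left replicates 1 to 5, against 156, 127, 111, 99.6 and 155 CPM in right replicates 1 to 5. It was highest in replicates 1 and 5 of both sides, above each of the other 6 libraries, and its log2 fold change was 0.05 (-0.27 to 0.37). Slit1 stood at 23.01, 36.03, 37.5, 38.8 and 25.8 CPM in left replicates 1 to 5, against 30.3, 32.5, 41.2, 27.01 and 32.2 CPM in right replicates 1 to 5. Slit3 ran against Slit2, with 2.15 to 2.74 CPM in replicates 1 and 5 and 8.59 to 29.5 CPM in the other 6 libraries. Robo1 (chromosome 16, 72308306 to 73046095, plus strand) stood at 159, 223, 230.2, 272 and 169.9 CPM in left replicates 1 to 5, against 185, 221, 225, 205 and 188 CPM in right replicates 1 to 5. Its 4 values in replicates 1 and 5 were the lowest, by a small margin of 1.09-fold. Robo2 stood at 20.8, 30.5, 28.95, 40.9 and 19.9 CPM in left replicates 1 to 5, against 21.9, 28.7, 41.6, 35.5 and 20.8 CPM in right replicates 1 to 5. Robo2 was likewise lowest in replicates 1 and 5, while Robo3, whose divergent form is needed for midline crossing, had 19.1 to 31.3 CPM with no such order. Robo4, a receptor of endothelial cells, had 0.0994 to 1.06 CPM.

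The secreted netrins were scarce in these pull-downs. The lipid-anchored netrin-G1 had the highest CPM of all 40 genes in 5 of the 6 libraries outside replicates 1 and 5, whereas Robo1 had the highest in right replicate 2 and in replicates 1 and 5 of both sides. Ntn1, the classical ligand of Dcc, stood at 0.131, 1.37, 2.59, 3.01 and 0.129 CPM in left replicates 1 to 5, against 0.279, 0.728, 3.61, 3.53 and 0.298 CPM in right replicates 1 to 5. Its 4 lowest values were again those of replicates 1 and 5. Ntn4 stood at 5.900, 8.95, 6.400, 7.47 and 6.96 CPM in left replicates 1 to 5, against 6.51, 7.39, 6.46, 4.85 and 6.501 CPM in right replicates 1 to 5. Ntn3 stood at 3.12, 3.31, 1.96, 2.401 and 3.43 CPM in left replicates 1 to 5, against 2.45, 2.26, 3.65, 4.03 and 2.77 CPM in right replicates 1 to 5. Over all libraries neither Ntn3 nor Ntn4 separated replicates 1 and 5 from the other 6, or the sides (log2 fold changes -0.09, -0.60 to 0.42, and 0.17, -0.18 to 0.52). Within replicates 1 and 5 alone both left values of Ntn3 lay above both right values. Ntng1, netrin-G1 (chromosome 3, 109780040 to 110144011, minus strand), stood at 61.1, 289, 346, 555 and 61.1 CPM in left replicates 1 to 5, against 61.1, 164, 465, 459 and 60.9 CPM in right replicates 1 to 5. The 4 values in replicates 1 and 5 were nearly equal, and the lowest of the other 6 libraries was 2.68 times as high. Ntng2, netrin-G2 (chromosome 2, 29194541 to 29253005, minus strand), stood at 31.1, 34.4, 25.6, 19.5 and 39.2 CPM in left replicates 1 to 5, against 39.1, 39.1, 22.4, 21.2 and 42.2 CPM in right replicates 1 to 5. Its 4 lowest values came from the 4 libraries highest in Ntng1, and the ratio of Ntng1 to Ntng2 reads was 1.45 to 1.97 in replicates 1 and 5 and 4.20 to 28.4 in the other 6 libraries. A gene of the same strand covers 14.0% of the exonic bases of Ntng2, which makes its level uncertain to that extent.

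Of the 6 netrin receptors, 5 were lowest in replicates 1 and 5, with Unc5a as the exception, where 24.7% of all tested genes were lowest there. Dcc stood at 23.7, 36.7, 37.7, 50.7 and 24.2 CPM in left replicates 1 to 5, against 28.8, 36.2, 53.5, 46.6 and 28.3 CPM in right replicates 1 to 5. Neo1, neogenin, a relative of Dcc that also binds repulsive guidance molecules, stood at 54.4, 89.8, 114, 149.7 and 51.1 CPM in left replicates 1 to 5, against 51.5, 76.3, 145, 135 and 51.02 CPM in right replicates 1 to 5. Replicates 1 and 5 were the lowest libraries for both, and the sides overlapped (log2 fold changes -0.16, -0.73 to 0.41, and 0.00, -0.90 to 0.90). Unc5a stood at 13.7, 24.01, 29.1, 25.6 and 16.8 CPM in left replicates 1 to 5, against 22.3, 23.9, 27.7, 18.1 and 22.9 CPM in right replicates 1 to 5. Unc5c (chromosome 3, 141465216 to 141834924, plus strand) stood at 4.14, 44.7, 58.96, 96.2 and 4.09 CPM in left replicates 1 to 5, against 3.85, 25.8, 95.3, 97.5 and 4.15 CPM in right replicates 1 to 5. For Unc5c the lowest of the other 6 libraries was 6.23 times the highest of replicates 1 and 5, the widest such gap of the 19 members of this kind. Unc5b and Unc5d had 1.84 to 2.55 and 1.92 to 2.44 CPM in replicates 1 and 5, against 5.51 to 22.0 and 7.04 to 25.7 CPM in the other 6. The ratio of Unc5c to Unc5a reads was 0.172 to 0.302 in replicates 1 and 5 and 1.08 to 5.37 in the other 6 libraries.

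**Figure D2:**
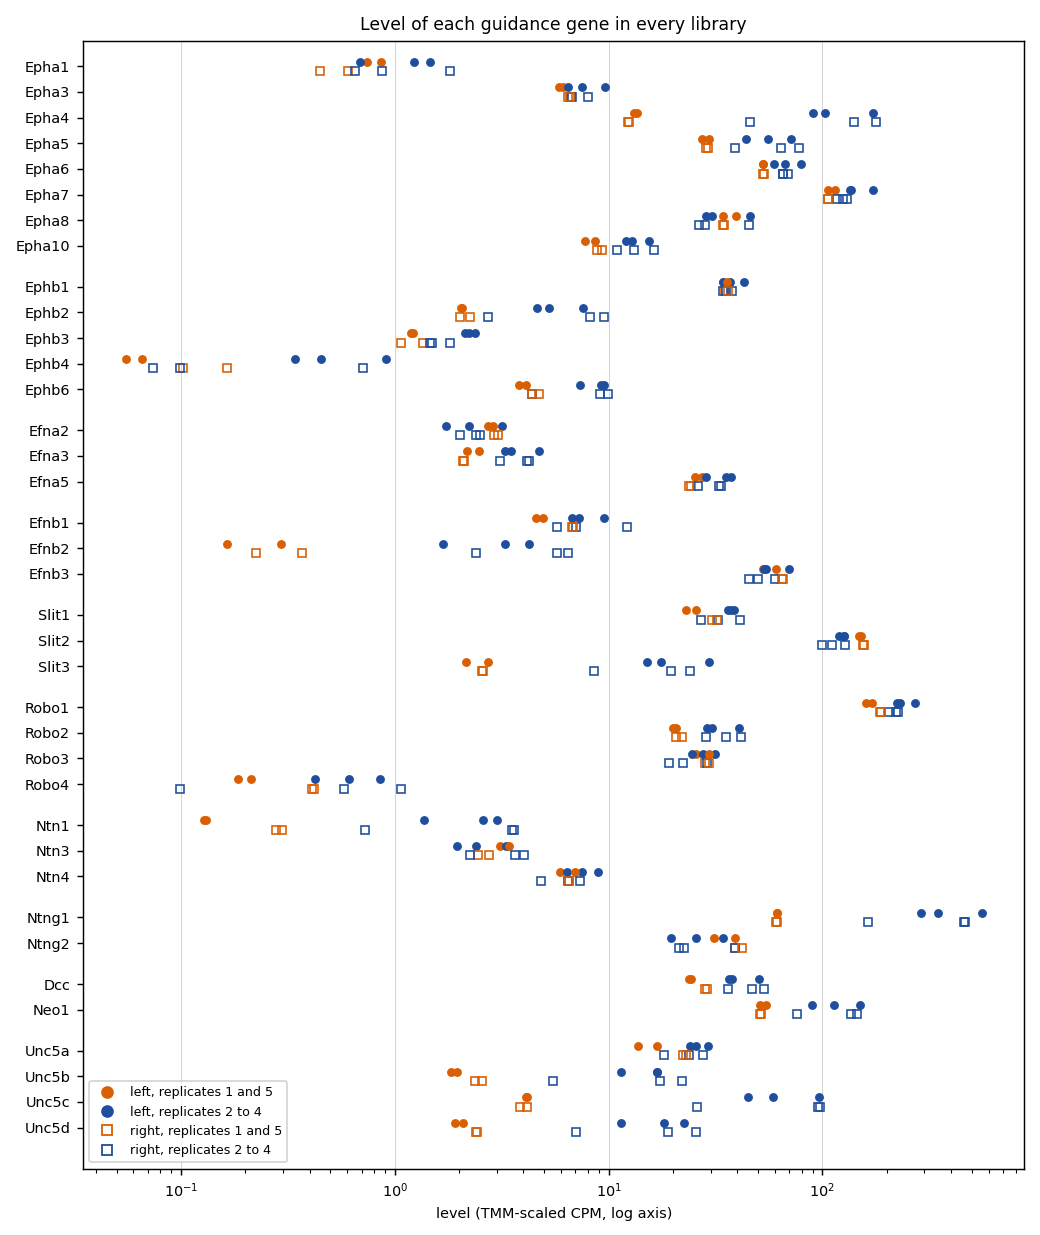
Each point is the TMM-scaled CPM (log axis) of 1 guidance gene in 1 library, for the 37 tested genes grouped by family, with left libraries as filled circles above right libraries as open squares, and replicates 1 and 5 in orange against replicates 2 to 4 in blue. Left and right points overlap for each gene, while orange and blue lie apart for genes such as Ntng1 (60.9 to 61.1 CPM in orange, 164 to 555 CPM in blue) and Unc5c (3.85 to 4.15 CPM in orange, 25.8 to 97.5 CPM in blue).

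The start regions of 2 paralogue pairs, the netrin-G genes and Unc5c with Unc5a, are shown so that their base composition can be compared. Ntng1 and Unc5c were lowest in replicates 1 and 5, whereas for Ntng2 and Unc5a these replicates overlapped with the other libraries. Other pairs also differed, among them Slit2 with Slit3, which ran in opposite directions, and they are not shown. The regions run from 250 bases before to 50 bases after the start in RefSeq (GRCm38.p6), with matches to a GC box (GGGCGG) or a TATA box (TATAAA) on either strand in capitals.
Ntng1, chr3:110143423-110143722, minus strand: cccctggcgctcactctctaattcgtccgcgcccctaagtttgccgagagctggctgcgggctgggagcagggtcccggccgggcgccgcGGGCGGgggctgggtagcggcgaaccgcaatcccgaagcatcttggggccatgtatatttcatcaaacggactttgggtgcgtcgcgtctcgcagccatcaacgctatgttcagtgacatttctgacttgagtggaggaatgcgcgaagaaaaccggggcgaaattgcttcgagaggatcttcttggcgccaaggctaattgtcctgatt
Ntng2, chr2:29248050-29248349, minus strand: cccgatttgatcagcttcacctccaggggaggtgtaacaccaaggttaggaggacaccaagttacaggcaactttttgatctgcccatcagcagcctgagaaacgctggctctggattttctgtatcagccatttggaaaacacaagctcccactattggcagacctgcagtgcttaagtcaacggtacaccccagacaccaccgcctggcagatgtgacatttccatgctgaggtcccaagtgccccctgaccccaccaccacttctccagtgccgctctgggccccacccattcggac
Unc5c, chr3:141465314-141465613, plus strand: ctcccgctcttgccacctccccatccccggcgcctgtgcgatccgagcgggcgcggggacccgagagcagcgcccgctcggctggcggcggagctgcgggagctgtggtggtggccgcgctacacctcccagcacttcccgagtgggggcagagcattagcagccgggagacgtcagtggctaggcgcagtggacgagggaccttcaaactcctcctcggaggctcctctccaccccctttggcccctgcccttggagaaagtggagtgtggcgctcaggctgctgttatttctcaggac
Unc5a, chr13:54949161-54949460, plus strand: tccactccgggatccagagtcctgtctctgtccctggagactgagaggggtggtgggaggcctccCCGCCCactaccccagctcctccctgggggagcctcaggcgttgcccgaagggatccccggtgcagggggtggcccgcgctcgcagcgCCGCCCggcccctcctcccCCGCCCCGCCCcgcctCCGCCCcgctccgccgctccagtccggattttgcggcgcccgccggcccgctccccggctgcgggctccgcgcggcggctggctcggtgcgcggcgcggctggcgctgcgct
Ntng1 held 28 CG pairs and 1 GC box and Ntng2 held 6 CG pairs and 0 GC boxes, where the median of all 32851 such regions was 7 CG pairs. Unc5c held 24 CG pairs and 0 GC boxes and Unc5a held 37 CG pairs and 5 GC boxes, of which 2 overlap by 1 base. A GC box occurred in the region of 25 of the 35 members for which one was read (all but Efnb3, Slit1, Ntn1, Dcc and Unc5d) and in 35.7% of all regions. A TATA box occurred in 2 of the 35 members and in 13.6% of all regions, and in 0 of the 4 regions shown. A match is only a run of letters, and binding was not measured.

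Over the 37 tested members, 19 had all 4 values of replicates 1 and 5 below the other 6 libraries (51.4%), where 24.7% of all tested genes did. The 19 were Epha4, Epha5, Epha6, Epha7, Epha10, Ephb2, Ephb3, Efna3, Efnb2, Slit3, Robo1, Robo2, Ntn1, Ntng1, Dcc, Neo1, Unc5b, Unc5c and Unc5d. A gap of 2-fold or more held for 8 of the 37 members (21.6%), against 7.18% of all tested genes. These 8 were Epha4, Efnb2, Slit3, Ntn1, Ntng1, Unc5b, Unc5c and Unc5d. In the other direction Slit2 alone lay above, 1 of 37 against 23.6% of all genes, and 0 of 37 lay above by 2-fold or more, against 0.24%. Over all 10 libraries the highest value was at least 2-fold the lowest in 24 of the 37 members, against 52.1% of all genes. These libraries were set apart after their profiles were seen, so the counts are a description with no test. In 14 of the 19 genes right replicate 2 was the lowest of the other 6 libraries, and the share of all genes with this order was not counted. On the first principal component of all genes right replicate 2 lay between the sets. Its value was -0.34, against -96.4 to -83.3 in replicates 1 and 5 and 35.6 to 91.2 in the other 5. Right replicate 2 also had the least glial RNA of the 6, with an astrocyte sum of 1001 CPM against 1540 to 2523 CPM in the other 5. A link of these values to the 14 genes was not tested.

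**Figure D3:**
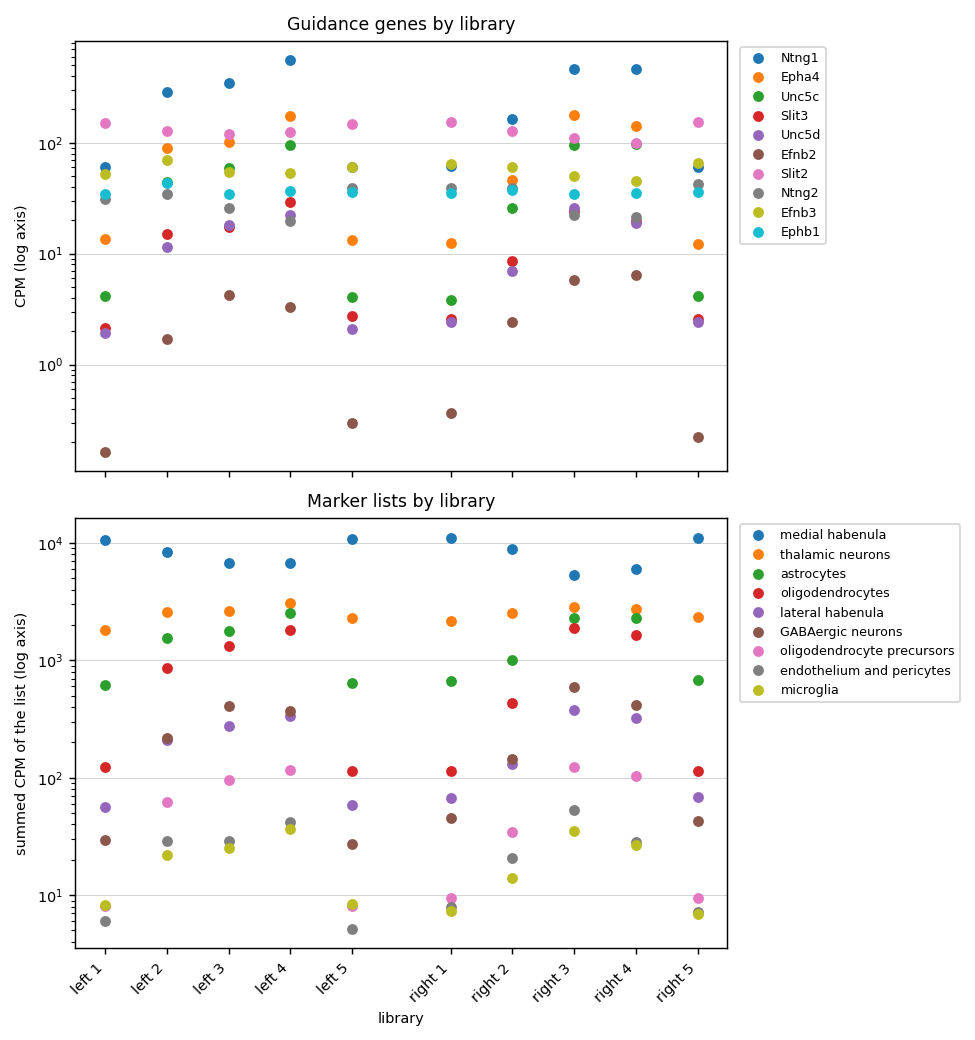
The upper panel plots the CPM (log axis) of 10 guidance genes in each library, left replicates 1 to 5 before right replicates 1 to 5, and the lower panel plots the summed CPM (log axis) of 9 marker lists in the same libraries. Ntng1, Epha4, Unc5c, Slit3, Unc5d and Efnb2 are low in replicates 1 and 5 of both sides, as are the markers of glia, lateral habenula and GABAergic neurons, while Slit2 and the medial habenular markers (10702 to 11112 CPM there, 5311 to 8833 CPM in the other 6 libraries) are high.

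Markers of other cells moved with these 19 genes. Of 15 astrocyte markers 14 lay below in replicates 1 and 5, of 12 oligodendrocyte markers 12, of 8 markers of oligodendrocyte precursors 8, of 10 microglial markers 7 and of 14 markers of endothelium and pericytes 11. The sum of the endothelial and pericyte list was 5.16 to 7.94 CPM in replicates 1 and 5 and 20.5 to 53.2 CPM in the other 6, with Cldn5 and Cdh5 at 0 in at least 1 of replicates 1 and 5. Precursor markers summed to 8.003 to 9.42 CPM in replicates 1 and 5 against 34.7 to 124.7 CPM in the other 6, with Matn4 at 0 in such a library, and microglial markers to 6.86 to 8.36 CPM in replicates 1 and 5 against 13.9 to 36.6 CPM in the other 6, with Aif1 at 0 in such a library. Markers of neighbouring neurons lay the same way. All 7 lateral habenular markers lay below, with sums of 56.0 to 67.98 CPM in replicates 1 and 5 against 130.3 to 381 CPM in the other 6. Of 6 markers of GABAergic neurons 4 lay below (sums of 27.1 to 45.4 CPM in replicates 1 and 5 against 143 to 589.6 CPM in the other 6), with Dlx1 at 0 in such a library, and of 9 thalamic markers 7 (1826 to 2358 CPM in replicates 1 and 5 against 2541 to 3097 CPM in the other 6), with Gbx2 at 0 in such a library. Much of the thalamic sum was Zic1, which overlapped (1366 to 1908 CPM in replicates 1 and 5, 1092 to 1713 CPM in the other 6), and Calb2 lay above. Of 12 medial habenular markers 10 lay above. The list of choroid plexus and ependyma had 2 of 8 below and 1 above. The part of other cell types in the levels of the guidance genes was not tested.

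Levels between genes were compared per length, as CPM divided by gene length in kilobases (RPKM) averaged over the 10 libraries. Per merged exon length the means were 30.6 RPKM for Ntng1, 18.1 for Efnb3, 12.6 for Epha7, 12.6 for Robo1 and 11.7 RPKM for Epha6. Per coding length they were 117 RPKM for Ntng1, 56.5 for Efnb3, 43.1 for Efna5, 41.3 for Robo1 and 40.2 RPKM for Epha7. The place of Ntng1 in these means came from the other 6 libraries, where it led all 40 genes by either length. In replicates 1 and 5 Efnb3 led by either length, with 16.6 to 20.6 RPKM per exon length where Ntng1 had 7.39 to 7.42 RPKM. The makeup of families shifted with the library. Per exon length Epha4 held 4.55% to 4.93% of the EphA total in replicates 1 and 5 and 12.6% to 36.7% in the other 6 libraries, while Epha8 held 21.2% to 24.2% in replicates 1 and 5 and 9.39% to 21.3% in the other 6. Slit3 held 3.48% to 4.27% of the slit total in replicates 1 and 5, against 11.9% to 29.7% in the other 6. Unc5a held 82.1% to 86.4% of the UNC5 total in replicates 1 and 5, against 30.4% to 65.7% in the other 6. Per coding length Unc5c had the largest share in each of the other 6 libraries (40.8% to 63.7%, Unc5a 12.4% to 39.4%), whereas per exon length it led Unc5a there in right replicate 4 alone (35.6% for Unc5c, 30.4% for Unc5a). Ntng1 held 41.2% to 48.8% of the netrin-G total per exon length in replicates 1 and 5, and 58.2% to 65.4% per coding length. Ephb1 (57.7% to 78.3% per exon length), Efna5 (70.5% to 78.7%), Efnb3 (82.7% to 92.8%) and Robo1 (65.2% to 72.8%) led their families in all 10 libraries by either length.

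**Figure D4:**
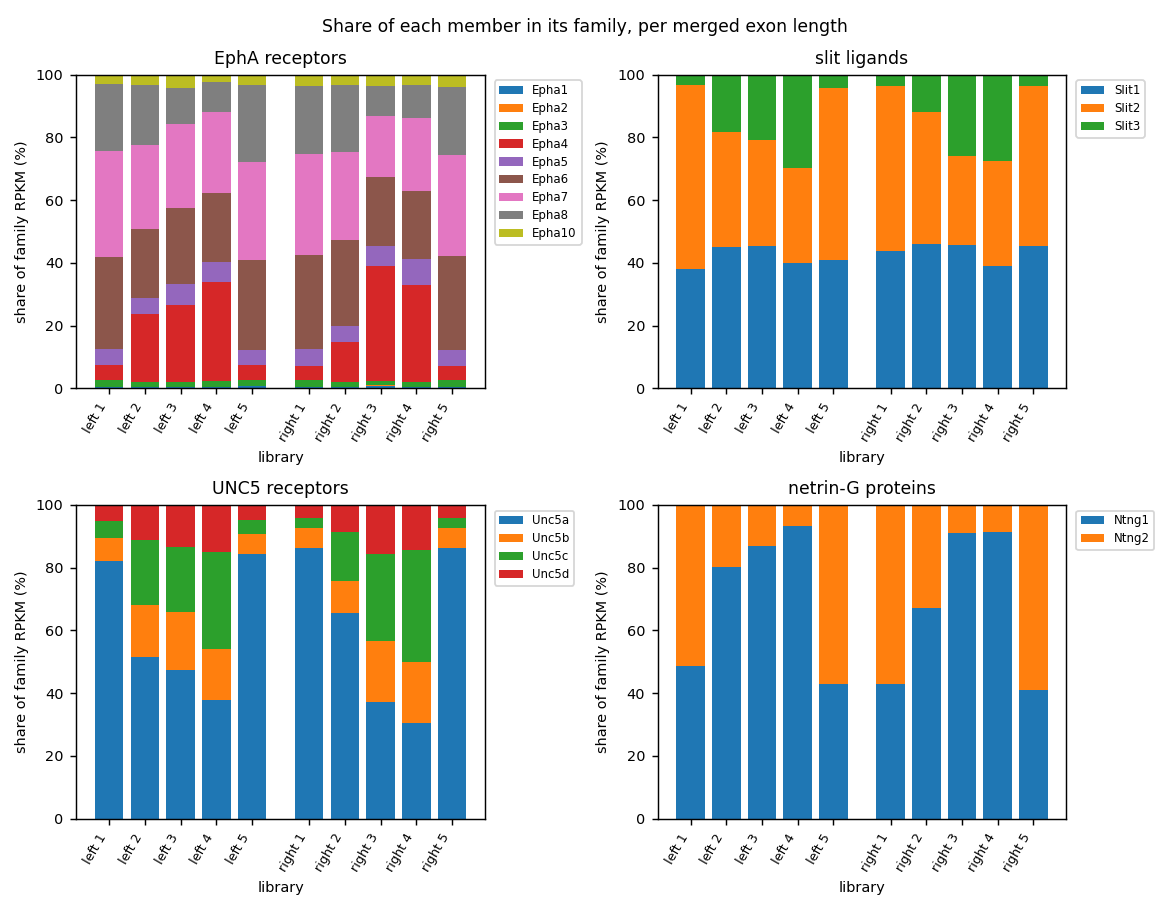
Stacked bars give the share of each member in the summed RPKM of its family (%, per merged exon length) in each library, left replicates before right replicates, for EphA receptors, slits, UNC5 receptors and netrin-G proteins. Epha4, Slit3, Unc5c and Ntng1 take smaller shares in replicates 1 and 5 of both sides (3.48% to 4.27% for Slit3, 41.2% to 48.8% for Ntng1) than in the other 6 libraries (11.9% to 29.7% for Slit3, 67.0% to 93.2% for Ntng1).

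Within replicates 1 and 5, where astrocyte markers were low on both sides, the left values were more often the lower ones. In 17 of the 37 members both left values lay below both right values (45.9%, against 31.4% of all genes), and in 5 both lay above (13.5%, against 29.5%). The 17 included Unc5a, Slit1, Dcc, Robo1 and Efnb1. Unc5a stood at 13.7 and 16.8 CPM in left replicates 1 and 5, against 22.3 and 22.9 CPM in right replicates 1 and 5. Slit1 stood at 23.0 and 25.8 CPM in these left libraries, against 30.3 and 32.2 CPM in the right ones. In replicates 2 to 4 the sides overlapped for both genes, and 0 of the 37 members had all left values below all right values (2.21% of all genes). Epha7 and Ephb3 had all 3 left values above all 3 right values there (5.41%, against 1.67% of all genes). Right replicates 1 and 5 differed by only slightly more than sampling noise. Left replicates 1 and 5 differed by more than that (chi-square per degree of freedom 1.41 and 2.14), though by less than the pairs formed with replicates 2 to 4 within a side. No test was therefore made on these 4 libraries. A difference of sides that appears in them cannot be told apart from a difference between the RNA samples behind them.

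Among genes for proteins that carry these signals inside the cell or modify them, none passed the test between the sides. Of 58 partner genes 57 were tested, and edgeR called 0 of them, with 0 at an unadjusted p under 0.05. DESeq2 gave 0 at either threshold, and limma-voom with sample weights gave 0 after adjustment and 7 at an unadjusted p under 0.05, beside the 2359 of 16250 genes. The median log2 fold change, left minus right, was 0.00 for 21 Eph partners, -0.04 for 16 slit-Robo partners and 0.00 for 20 tested netrin partners, beside -0.01 over all tested genes. For the 2 most abundant of each list the libraries of the sides overlapped. Vav3 averaged 355 ± 84.8 CPM in left libraries and 352 ± 73.4 CPM in right libraries, and Anks1b, a synaptic adaptor, 387 ± 85.6 CPM in left and 386 ± 78.8 CPM in right libraries (SD, n = 5 each). Enah, which promotes growth of actin filaments, averaged 536 ± 102.5 CPM in left libraries and 539 ± 137 CPM in right libraries, and Ndfip1, an adaptor of ubiquitin ligases, 454 ± 96.6 CPM in left and 447 ± 74.9 CPM in right libraries. Maged1, which binds Unc5a, averaged 667 ± 39.3 CPM in left libraries and 707 ± 77.7 CPM in right libraries, and Pitpna, a lipid transfer protein that binds Dcc, 492 ± 27.7 CPM in left and 484 ± 31.3 CPM in right libraries. Of the tested partners 9 of 21, 9 of 16 and 10 of 20 lay below in replicates 1 and 5, where 24.7% of all genes did. In the same lists 5, 2 and 1 lay above, where 23.6% of all genes did.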

How the data were processed

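RNA bound to tagged ribosomes was measured in 10 libraries, 5 per side, with groups and replicate numbers from the sample titles. The authors deposited a file of unnormalised gene-level read counts for each library. The aligner STAR (2.0.0e), the counter HTSeq and the mm10 assembly are named per the submitters' processing notes, while no source used here gives the annotation, strand setting or filters. Of 32537 rows 6 name no gene and were left out; reads outside genes were 13.6% to 18.9% and ambiguous reads 2.25% to 2.81% of these together with the reads in genes. The members, gene lists and tests were chosen with earlier results of these data known.

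All genes were fitted together with edgeR 4.0.16 in R 4.3.3 (TMM, filterByExpr with a minimum count of 10, robust quasi-likelihood F test, side as the only term, two-sided, Benjamini-Hochberg adjusted p under 0.05). Standard errors for the 95% intervals come from the F statistic. DESeq2 1.42.0, limma 3.58.1, other normalisations and filters, the mean log2 CPM (prior count 2) of glial and vascular markers as a covariate, blocks and left-out libraries were alternatives. The fit was tested on simulated data. Coordinates and lengths are from GENCODE M21 (GRCm38), which matched all 40 members. Values in every library are given for the 2 most abundant tested members of each family, the 5 with the smallest p and the 5 with the widest range; others are given by range. Levels per coding length and the grouping of replicates 1 and 5 were chosen after seeing the data. Intervals and limits for 0 reads (3 reads) cover counting error only.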

Additional observations from a re-analysis of the deposited data

Results flagged for a closer look

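Of the 48 sets of 5 libraries examined (24 genes on each side), 2 held a library far from the others of its side by Dixon's criterion for 5 values, where chance gives about 1 in 20 sets. Efnb1 stood at 12.17 CPM in right replicate 2, against 5.74 to 7.03 CPM in the other right libraries. Ephb4 stood at 0.7094 CPM in right replicate 3, against 0.0743 to 0.164 CPM in the other right libraries, a value that rests on 46 reads.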

How the results depend on the processing

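The count of called genes was 0 for members, partner genes and all genes in edgeR and under each of the 22 alternatives. With the replicate number as a block (replicate block) the count of called members was 0. In this edgeR fit 2 members, Efnb2 (0.0275) and Epha7 (0.0472), had an unadjusted p under 0.05, beside 297 of all 16250 genes. Deviations from the side means correlated between same-numbered libraries at 0.715 to 0.873 for numbers 1, 3, 4 and 5. For number 2 the correlation was 0.0962. Number 2 stood apart and the labels state no pairing, so the numbers were not taken to pair the libraries. The count of members with a log2 fold change above 0 was 19, against 24 with library totals, 27 with replicates 2 to 4 alone, 30 in limma-voom and 13 to 31 with 1 library left out. Among 24 named members, 78 of 527 recomputed log2 fold changes had the other sign, all of them uncalled; the cause was not tested. In limma-voom with sample weights the values were 1.60 for Efnb2, -0.07 for Efnb3, 0.07 for Slit1, -0.17 for Slit2, 0.28 for Robo2, 1.34 for Ntn1, 0.08 for Ntn3, 0.17 for Dcc, 0.60 for Neo1 and 2.18 for Unc5c; Epha4 kept its sign at 1.80, against 0.01 in edgeR, and Ntng1 at 1.42, against 0.12. Neo1, at 0.00, became 0.02 with upper quartile factors, 0.04 with library totals, 0.02 with no filter, 0.01 with the 1 CPM filter, 0.05 with the glial covariate, 0.02 with the replicate block, 0.02 with lanes as a block, 0.02 with replicates 1 and 5 summed and 0.01 with replicates 2 to 4 alone. Slit1 became 0.00 with library totals, 0.06 with lanes as a block, 0.06 with replicates 1 and 5 summed and 0.17 with replicates 2 to 4 alone; Unc5a became 0.04, 0.04 and 0.19 in the last 3. Unc5c became 0.04 with the glial covariate, 0.03 with the replicate block and 0.02 with lanes as a block. Leaving out 1 library at a time gave ranges that cross 0: Epha4 -0.50 to 0.59, Ephb1 -0.01 to 0.08, Ephb6 -0.08 to 0.27, Efna3 -0.11 to 0.19, Efnb1 -0.39 to 0.00, Efnb3 -0.05 to 0.08, Slit1 -0.09 to 0.09, Slit2 -0.03 to 0.13, Robo1 -0.07 to 0.13, Robo2 -0.25 to 0.09, Ntn1 -0.67 to 0.30, Ntn3 -0.18 to 0.04, Ntng1 -0.35 to 0.51, Neo1 -0.25 to 0.24, Unc5a -0.19 to 0.06 and Unc5c -0.69 to 0.38. The count of members with a 2-fold range over the libraries was 24, and 23 with CPM over plain totals. The count below in replicates 1 and 5 was 19, and 18 with plain totals; the count above was 1, and 1 to 2 with 1 library left out (2 without left replicate 1 or left replicate 2).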

Other observations

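Some members lie close together in the genome and still differed widely in level. Robo3 and Robo4 are neighbours on opposite strands of chromosome 9 (37415669 to 37433246 and 37401897 to 37415115), and Robo3 had 19.1 to 31.3 CPM where Robo4, a gene of endothelium, had 0.0994 to 1.06 CPM. Efna1, Efna3 and Efna4 lie within 89271733 to 89338028 of chromosome 3, and Efna3 had 2.09 to 4.72 CPM where Efna1 and Efna4 had at most 0.162 and 0.179 CPM.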
